A study of Mus musculus with 3 samples.

Results

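Platelet genes are the subject here: 10 genes of the megakaryocyte and platelet programme (Itga2b, Pf4, Gp9, Gp1bb, Gp5, Treml1, Vwf, Rab27b, Mmrn1 and Gng11), read together with the antibody tag against CD41, the surface protein that Itga2b encodes. They are 10 of the 31053 genes and 1 of the 4 antibody tags measured, and they were chosen by name for their role. The cells were lineage-negative, Sca1-positive, Kit-positive (LSK) mouse bone marrow cells, the compartment that holds blood stem cells and multipotent progenitors. They came from 2 mice labelled Helios-deficient and 2 labelled wild type, were marked with a hashtag antibody per mouse, and were pooled in 1 droplet run, so all 4 mice share the run and its chemistry. Helios is the transcription factor encoded by Ikzf2. The labels do not give the ages of the mice, the part of Ikzf2 that is deleted, or the cells in which it is deleted, and 1 mouse is 1 replicate.

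Platelets are shed by megakaryocytes, very large cells of the bone marrow that pack granules and adhesion receptors into the fragments they release. The integrin of CD41 and its partner CD61 binds fibrinogen and lets platelets clump, and the GPIb-IX-V complex holds platelets to von Willebrand factor at a damaged vessel wall. Several of these genes are also read in stem cells: Vwf marks stem cells that are biased toward platelets, and CD41 appears on stem cells and early progenitors before any megakaryocyte is formed. GATA and ETS family factors are the known regulators of the programme.

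The promoters of the members that moved together and of one that did not are shown first, because the results below separate these genes. The table of RefSeq promoters used here (build GRCm38.p6) matched 7 of the 10 members. Vwf, Rab27b and Gng11 were not matched in it. The 250 bases before the annotated start were searched on both strands for a GATA word, which was AGATAA, its variant with another last letter AGATAG, or the same with another first letter, TGATAA or else TGATAG. The ETS word was AGGAAG or, with another first letter, CGGAAG. In the sequences, written 5′ to 3′ on the gene's strand, the capitals mark these words or their reverse complements. Pf4 is at chr5:90772185-90772434 (plus strand), Itga2b at chr11:102469884-102470133 (minus strand), Gp5 at chr16:30310782-30311031 (minus strand) and Mmrn1 at chr6:60944067-60944316 (plus strand).
Pf4: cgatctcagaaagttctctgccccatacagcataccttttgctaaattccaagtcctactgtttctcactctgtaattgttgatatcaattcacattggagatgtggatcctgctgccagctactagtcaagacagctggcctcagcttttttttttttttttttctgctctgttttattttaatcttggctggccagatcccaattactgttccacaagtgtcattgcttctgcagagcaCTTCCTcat
Itga2b: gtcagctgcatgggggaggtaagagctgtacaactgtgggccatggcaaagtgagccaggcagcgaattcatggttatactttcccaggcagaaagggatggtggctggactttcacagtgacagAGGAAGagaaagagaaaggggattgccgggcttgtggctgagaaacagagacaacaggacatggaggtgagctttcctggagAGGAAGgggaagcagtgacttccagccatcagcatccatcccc
Gp5: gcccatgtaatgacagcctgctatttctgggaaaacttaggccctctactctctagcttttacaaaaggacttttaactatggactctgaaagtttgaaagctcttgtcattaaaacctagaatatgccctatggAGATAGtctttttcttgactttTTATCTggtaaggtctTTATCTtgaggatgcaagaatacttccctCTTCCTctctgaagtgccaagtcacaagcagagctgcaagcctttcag
Mmrn1: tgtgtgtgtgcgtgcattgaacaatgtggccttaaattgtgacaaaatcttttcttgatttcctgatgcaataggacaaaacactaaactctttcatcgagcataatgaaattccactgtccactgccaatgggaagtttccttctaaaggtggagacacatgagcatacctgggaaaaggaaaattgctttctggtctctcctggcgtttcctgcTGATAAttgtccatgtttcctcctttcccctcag
An ETS word stood in the promoters of 5 of the 7 members (Itga2b, Pf4, Gp9, Gp1bb and Gp5) and in 39.2% of all 32851 promoters of this length. In Itga2b it began 125 and 43 bases before the start, in Gp5 48 bases before it and in Pf4 9 bases before it. A GATA word stood in 3 of the 7 (Gp1bb, Gp5 and Mmrn1) and in 26.5% of all promoters. Gp5 held 3 of them, beginning 115, 93 and 77 bases before the start, and Mmrn1 held 1, at 34 bases. The Treml1 window held neither word. These are matches of letters and show no binding.

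The authors kept 3470 cells: 557 and 824 from the Helios-deficient mice 1 and 2, and 1175 and 914 from the wild-type mice 1 and 2. Median depth per cell was 8670, 8461, 7599 and 7627 UMIs (unique molecular identifiers, 1 per captured RNA molecule) in that order, so the Helios-deficient cells were the deeper ones. Values per mouse are given below in this order, and levels are CPM, UMI counts scaled by the total UMIs of the summed cells. Ikzf2 was read at 73.6, 82.7, 70.6 and 67.7 CPM, with no loss in the Helios-deficient mice. The counts come from the 3 prime end of the RNA and do not check the deletion, so genotypes are used as labelled. Summed markers of B cells, which should be absent from LSK cells, were at 73.5, 1007, 4092 and 77.0 CPM. Their part in the results was not tested, except where wild-type mouse 1 is left out below.

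All 10 genes were detected, at very different depth. Over the kept cells there were 5564 UMIs of Pf4, 2851 of Gng11, 1461 of Itga2b, 999 of Gp9, 843 of Mmrn1, 532 of Gp5, 395 of Rab27b, 203 of Vwf, 175 of Treml1 and 96 of Gp1bb, so the last few genes carry the widest errors. Gp1bb, the beta chain of the von Willebrand factor receptor, overlaps the neighbouring gene Septin5 on chromosome 16 (18620319 to 18622403 against 18621811 to 18629938). Septin5 had only 6 UMIs (listed as Sept5) and was never tested.

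To compare shares of cells at equal depth, each cell was thinned to 3000 UMIs, which left out 17 of the kept cells for being too shallow. Gng11, a G protein gamma subunit, was then seen in 23.3% of cells, and 46.1% before thinning. Pf4, the platelet factor 4 chemokine stored in alpha granules, was seen in 11.4% (21.1% before thinning), and Itga2b in 8.95% (20.4% before). Gp9 and Gp5, further subunits of the von Willebrand factor receptor measured here, were seen in 8.08% and 3.45%, Mmrn1, an alpha granule protein that binds factor V, in 8.28%, and Rab27b, a small GTPase of granule release, in 3.50%. Vwf was seen in 1.85%, Treml1, a receptor of the alpha granule membrane, in 1.42%, and Gp1bb in 0.579%.

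Free RNA in droplets can place a UMI in a cell that does not make it. As a background, the 347 cells richest in the lymphoid gene Dntt, a class that should lack platelet RNA, held Gp9 in 3.46% of thinned cells, Gng11 in 3.17%, Pf4 in 1.15%, Itga2b in 0.865% and Mmrn1 in 0.576%. The other 5 genes were in none of them, which allows a share of up to 1.06% (exact binomial bound, counting error only). The shares over all cells lay above this background for every member except Gp1bb, which was below the bound, and Treml1, which was close to it. Gp9 had the highest share of the 10 in the Dntt-rich cells, although Pf4 had more UMIs over all kept cells (5564 against 999). Whether these UMIs were free RNA or made by the cells was not tested. A low share of cells with Gp9 is therefore not interpreted here.

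The members were next read in the cells where stem cells are expected. Stem cells among LSK cells carry little CD48 and much CD150, so a stem gate was cut within each mouse from the tags: the lowest of 3 equal parts for CD48 and the highest of 3 for CD150. It held 59, 98, 124 and 99 cells, 380 in all. A list of 8 stem cell markers summed to a mean of 660 CPM in the gate and 387 CPM outside it. Neither tag is a member, and CD41 was not used.

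Nearly all platelet genes were higher in the stem gate. Vwf, which platelets release to bind the exposed vessel wall, was at 35.6, 38.5, 18.5 and 20.3 CPM in the gate and at 3.64, 5.14, 2.98 and 4.59 CPM outside it. Every mouse was higher in the gate and the 2 sets of values did not overlap. The log2 difference was 2.71 (SE 0.24, adjusted p = 8.92e-19, edgeR's quasi-likelihood test with Benjamini-Hochberg adjustment, 4 mice). Vwf passed the filter for low counts only through the stem gate. Mmrn1 was at 77.2, 86.7, 86.9 and 90.5 CPM against 22.6, 24.8, 17.9 and 14.6 CPM, a log2 difference of 2.11 (SE 0.13). Gng11 was at 206, 243, 167 and 181 CPM against 72.5, 90.6, 72.8 and 66.4 CPM, a difference of 1.37 (SE 0.08). All 3 genes were thus higher in the stem gate in every mouse. Here and below, the share of all genes without overlap between groups was not counted, so nothing is concluded from a lack of overlap.

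Counted together, 9 of the 10 members passed the test as higher, where 8.0% of all 10241 genes tested did. Gp1bb, like Vwf, passed the filter for low counts only through the stem gate, which weakens their part in the count. The receptor subunits Gp1bb, Gp5 and Gp9 had log2 differences of 2.46 (SE 0.36), 1.37 (SE 0.18) and 1.37 (SE 0.13). Treml1 rose by 2.00 (SE 0.28), Rab27b by 1.69 (SE 0.20) and Itga2b by 1.02 (SE 0.11). Itga2b was at 77.2, 99.9, 80.4 and 73.0 CPM in the gate and at 36.6, 42.0, 39.2 and 43.7 CPM outside it. Pf4 did not pass: it was at 301, 714, 154 and 532 CPM in the gate and at 133, 161, 77.8 and 214 CPM outside, a log2 difference of 1.51 (SE 0.27, adjusted p = 0.0554). It was higher inside in 4 of 4 mice, but its level differed several-fold between mice, and DESeq2 called it. In such sums, more expressing cells and more RNA per cell cannot be told apart.

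Other platelet genes moved with them. Of 28 further genes of platelets and megakaryocytes, 19 could be tested, 15 were higher in the stem gate and 1 was lower, with a median log2 difference of 1.03 against -0.00091 over all genes. Cavin2, a coat protein of membrane caveolae, rose by 3.02, Cd9, a tetraspanin of platelets, by 1.03 and Rap1b, a GTPase of integrin activation, by 0.82. Of 11 transcription factors of the lineage, 10 were higher, with a median of 0.71.

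The CD48-high CD150-high gate (highest of 3 parts for both tags, 430 cells) is where megakaryocyte and erythroid biased multipotent progenitors are expected. Against the stem gate, 8 of the 9 members tested were lower there (10.5% of 7449 genes were). Mmrn1 was at 16.8, 12.9, 10.9 and 9.88 CPM, below every stem gate value, with a log2 difference of -2.79 (SE 0.18). Vwf was at 2.40, 0.718, 1.82 and 12 CPM, a difference of -2.61 (SE 0.53), and Gng11 stood at -1.84 (SE 0.11). Treml1 was at -1.69 (SE 0.36), Gp9 at -1.55 (SE 0.17), Rab27b at -1.40 (SE 0.24) and Gp5 at -0.85 (SE 0.21). Vwf, Treml1, Rab27b and Mmrn1 passed the filter for low counts only through the stem gate, which weakens their part in the count. Itga2b stood at -0.58 (SE 0.15), at 49.3, 47.4, 40.0 and 84.7 CPM, and its wild-type mouse 2 lay inside the stem gate range. Pf4 was not called (-0.80, SE 0.47, adjusted p = 0.389), and Gp1bb had too few counts to test. Of the further platelet genes 12 of 15 tested were lower as well, with a median of -0.95, and so were 9 of the 11 transcription factors.

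This gate in wild-type mouse 1 also held B cell marker RNA at 20256 CPM. Without that mouse, 5 members were called (Gp9, Treml1, Rab27b, Mmrn1 and Gng11), all lower (8.74% of genes). Itga2b (-0.45), Gp5 (-0.60) and Vwf (-2.49) were lower but not called (adjusted p = 0.0874, 0.0607 and 0.0629 by edgeR's quasi-likelihood test with Benjamini-Hochberg adjustment). The call of Itga2b was also lost without Helios-deficient mouse 1 (-0.57) or mouse 2 (-0.39), and that of Vwf without Helios-deficient mouse 1 (-2.41).

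The remaining gates separate the tags. In the CD48-low CD150-low gate (415 cells) Mmrn1 was at a mean of 44.7 ± 15.6 CPM and Gng11 at 132 ± 33.2 CPM (SD, n = 4 mice), both between the stem gate and the CD48-high CD150-high gate. Vwf was at 1.56 ± 1.27 CPM there, from 4 UMIs, and was thus near 0 where CD150 was low. In the CD48-high CD150-low gate (312 cells) Mmrn1 was at 3.57 ± 2.70 CPM, Vwf at 0.724 ± 0.942 CPM and Itga2b at 26.5 ± 4.06 CPM, close to the 26.6 ± 6.90 CPM of Itga2b in the CD48-low CD150-low gate. These levels are a description and were not tested.

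Within single cells several members were read together more often in the stem gate than outside it. After thinning, 77.2% of stem gate cells had at least 1 member and 18.8% had at least 3, against 40.7% and 4.55% of cells outside it and 9.22% and 0% of the Dntt-rich cells. List-high cells, defined in the next comparison, had 78.5% and 36.0%. Of the 119 cells with Gp5, 43.7% also had Pf4, against 10.2% of the other cells, and 10.9% had Mmrn1, against 8.19% of the others. Of the 286 cells with Mmrn1, 39.2% had Gng11, against 21.9% of the others.

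**Figure D1:**
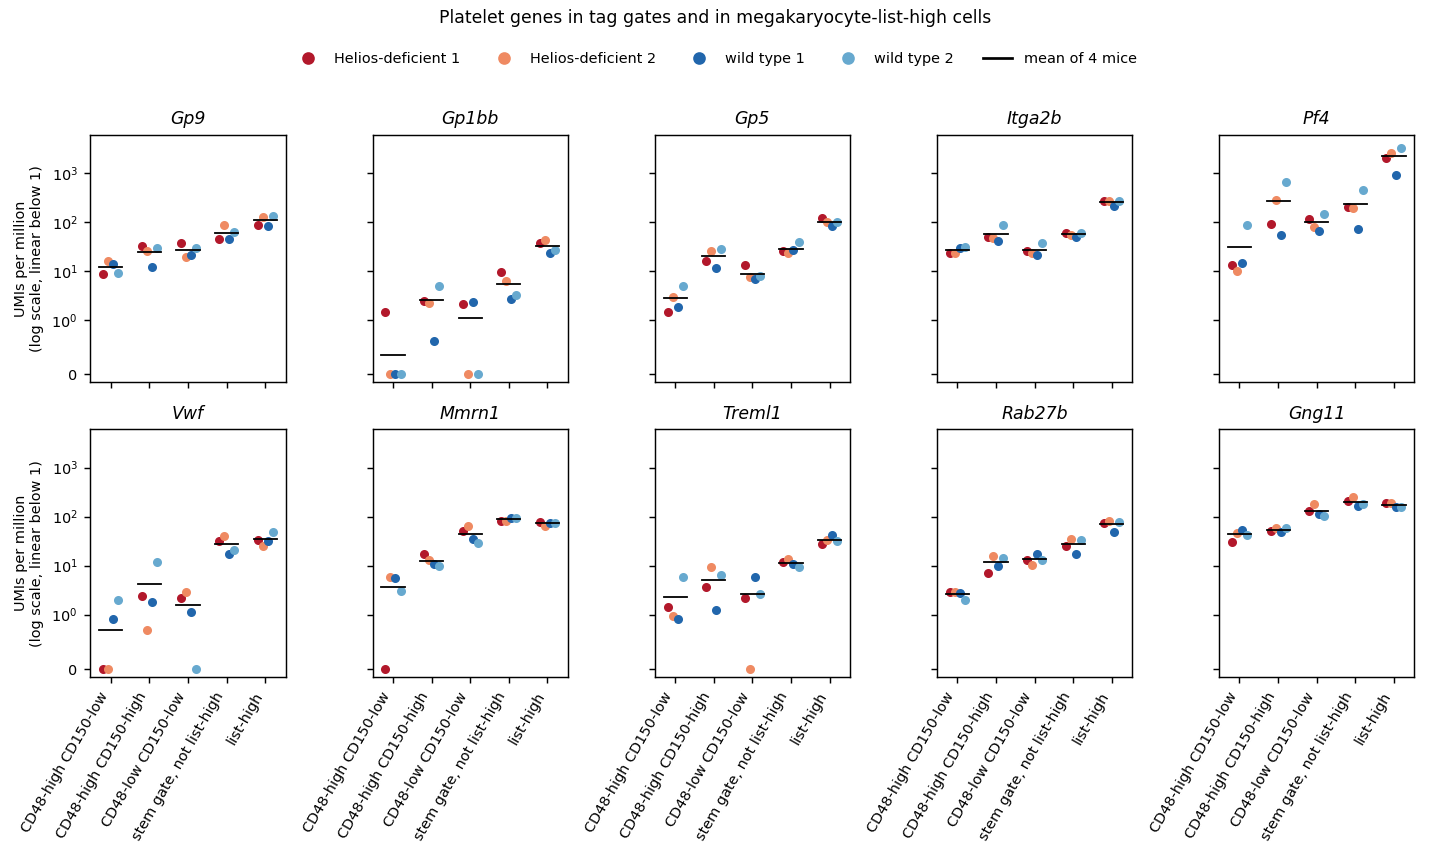
Level of each platelet gene (CPM, symmetric log axis) per mouse in 5 cell groups: the CD48-high CD150-low, CD48-high CD150-high and CD48-low CD150-low gates, the stem gate without list-high cells, and list-high cells. Points are mice (2 Helios-deficient, 2 wild type). Pf4 and Itga2b climb again from stem gate to list-high cells, whereas Mmrn1 and Gng11 are already at their upper level in the stem gate.

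Which members mark committed cells was asked with cells chosen by other genes. A list of 19 megakaryocyte genes that holds no member was summed in each cell, and the top 5% with at least 3 such UMIs were called list-high: 174 cells, 30, 44, 60 and 40 per mouse. The cut is not a natural gap, since the last cell inside and the first outside both stood at 10.2 list UMIs per 10000 and 69 cells ranked from 4% to 6%. Of these cells 57 (32.8%) were also in the stem gate, making up 15% of it, and 17 were in the CD48-high CD150-high gate. They are a range of cells with much of this RNA, not a pure type. Their summed stem cell markers had a mean of 313 CPM, against 721 CPM in the 323 stem gate cells that were not list-high.

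Against those 323 cells, the members fell into 2 sets. Pf4 was at 201, 193, 70.6 and 447 CPM in the stem gate and at 2036, 2491, 899 and 3246 CPM in list-high cells, a log2 difference of 3.27 (SE 0.16, adjusted p = 0.000187, edgeR's quasi-likelihood test with Benjamini-Hochberg adjustment). Itga2b was at 60.2, 53.7, 48 and 58.3 CPM against 260, 264, 210 and 269 CPM, a difference of 2.16 (SE 0.13). Both were higher in 4 of 4 mice, and the lack of overlap between the groups is a description only.

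The receptor subunits were in the same set. Gp1bb was higher by 2.61 (SE 0.41), Gp5 by 1.77 (SE 0.20) and Gp9 by 0.83 (SE 0.16). Gp5 was at 25.5, 23.0, 26.7 and 37.8 CPM in the stem gate and at 121, 98.5, 83.7 and 98.4 CPM in list-high cells, while Gp9 overlapped, at 44.0, 84.3, 45.3 and 61.4 CPM against 87.6, 126, 83.7 and 133 CPM. Treml1 rose by 1.56 (SE 0.32) and Rab27b by 1.30 (SE 0.21). Gp1bb and Treml1 had only 12 and 28 UMIs in these stem gate cells. Of the members called, they and Rab27b passed the filter for low counts only through list-high cells, which weakens their part in the count. In all 7 of 10 members were called higher, where 6.58% of 5777 genes were. DESeq2 called 4 (Itga2b, Pf4, Gp5 and Rab27b; 1.35% of genes), gave Gp9 an adjusted p of 0.0956 and gave no adjusted p for Gp1bb and Treml1. Of the 19 list genes, 4 were detected in over 20% of all cells, up to 65.4%. With the other 15 alone, a list chosen after the data were seen, 5 of 9 members were higher (Itga2b, Pf4, Gp5, Treml1 and Rab27b; 5.23% of genes), and Gp9 was not called (0.59, adjusted p = 0.0576). With gates at the outer of 4 equal parts, 4 of 8 were higher (Itga2b, Pf4, Gp5 and Rab27b; 4.52% of genes), and Gp9 was at 0.44 (adjusted p = 0.150, all by edgeR's quasi-likelihood test with Benjamini-Hochberg adjustment).

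The other set, Vwf, Mmrn1 and Gng11, was not called higher in list-high cells. Mmrn1 was at 81.1, 82.8, 92.0 and 92.9 CPM in the stem gate and at 77.5, 62.9, 74.0 and 74.4 CPM in list-high cells (log2 difference -0.31, SE 0.16, adjusted p = 0.231). Gng11 was at 211, 248, 165 and 180 CPM against 185, 186, 158 and 157 CPM (-0.25, SE 0.11, adjusted p = 0.125). Both were lower in list-high cells in 4 of 4 mice. Both passed as lower when list-high meant the top 10% (Mmrn1 -0.45, adjusted p = 0.0364, and Gng11 -0.41, adjusted p = 0.0025, edgeR's quasi-likelihood test with Benjamini-Hochberg adjustment). They also passed as lower with the list of 15 genes (Mmrn1 -0.49 and Gng11 -0.43), and Gng11 alone with the gates at 4 equal parts (-0.44). When the gates were instead cut on each tag's share of a cell's tag UMIs, Mmrn1 and Gng11 stood at 0.0069 and 0.05, with no call.

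Vwf was at 32.4, 39.9, 17.3 and 20.5 CPM in the stem gate and at 33.7, 25.1, 31.1 and 47.9 CPM in list-high cells, so the groups overlapped. Its log2 difference was 0.31 (SE 0.28, adjusted p = 0.572), and on tag shares 0.91 with a call (adjusted p = 0.0057, edgeR's quasi-likelihood test with Benjamini-Hochberg adjustment). Shares of UMIs did not follow the same 2 sets throughout. List-high cells, 5.01% of all, held 62.5% of Pf4 UMIs, 55.2% of Gp1bb, 33.1% of Treml1, 30.6% of Gp5, 29.1% of Rab27b, 28.2% of Itga2b and 27.6% of Vwf, but 17.9% of Gp9, 14.1% of Mmrn1 and 9.96% of Gng11. The stem gate, 11% of cells, held 40.4% of Vwf UMIs, the highest share of any member, then 36.5% of Gp1bb and 30.6% of Mmrn1. It held 20.8% of Gng11, 20.9% of Gp5 and Gp9, and 17.1% of Itga2b, the lowest.

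The stem gate comparison was also run without list-high cells. With them removed, an alternative chosen after the data were seen, 8 of 9 members tested were higher in the stem gate (7.37% of genes), Vwf by 3.20 and Mmrn1 by 2.30. In this fit Vwf and Treml1 passed the filter for low counts only through the stem gate. Pf4 was at 2.00 with an adjusted p of 0.0880 (edgeR's quasi-likelihood test with Benjamini-Hochberg adjustment).

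Transcription factors and further platelet genes outside the list were read in the same contrast. Of 9 such platelet genes, 8 were tested, 5 were higher and 1 was lower in list-high cells, with a median log2 difference of 0.72 against -0.0094 over all genes. Of the 11 factors, 7 were higher, with a median of 0.42. Gata1, the factor of red cell and megakaryocyte commitment, rose by 1.73, its partner Zfpm1 by 1.02 and Mef2c, a factor of megakaryocyte maturation, by 0.74.

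Pf4 had the most uneven spread among cells. The 1% of cells with most Pf4 held 67.5% of its UMIs, up to 280 in 1 cell, whereas the same share held 23.3% for Itga2b, 14.1% for Mmrn1 and 8.0% for Gng11. Of 731 cells with any Pf4 UMI, 541 had 1 or 2. The 71 cells with at least 10 UMIs, numbering 11, 28, 11 and 21 per mouse, held 78.6% of Pf4 UMIs, so the level of Pf4 in a mouse rests on few cells. Of these 71, 41 were list-high, 24 were in the stem gate and 14 in the CD48-high CD150-high gate.

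These Pf4-rich cells carried the other members too. Itga2b was seen in 67 of them (94.4%, against 18.9% of other cells), Gng11 in 64, Gp9 in 60, Rab27b in 48, Gp5 in 47, Mmrn1 in 43, Treml1 in 34, and Gp1bb and Vwf in 31 each. Procr, a stem cell surface protein, was in 6 of the 71 (8.45%), against 27.2% of all other cells and 41.3% of the other stem gate cells. Mecom, another stem cell marker, was in 17 (23.9%), against 30.9% and 47.8%. The cells were deep, with a median of 15574 UMIs, and these shares are not thinned.

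The CD41 tag, Itga2b, Pf4 and Vwf were each correlated, within each mouse, with every gene detected in at least 5% of cells (9168 genes). Log-transformed RNA UMIs per 10000 and log-transformed tag UMIs were used (mean r over 4 mice, described without a test). The members were also correlated with one another in the same way. Cavin2 was the gene outside the members most like Pf4 (r = 0.468), Itga2b (0.399), Vwf (0.318) and the CD41 tag (0.280). Tuba8, a tubulin, came next for Pf4 (0.392), Itga2b (0.394) and the tag (0.238). Further genes like Itga2b were Apoe (0.357), Mfsd2b (0.348) and Gata1 (0.344), those like Pf4 were Rap1b (0.308) and Cd9 (0.298), and those like Vwf were Bex4 (0.199), Apoe (0.179) and Tuba8 (0.171). Mmrn1 was closer to Gng11 (r = 0.231) than to Itga2b (0.0901). All points share the run and the depth of their cell.

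**Figure D2:**
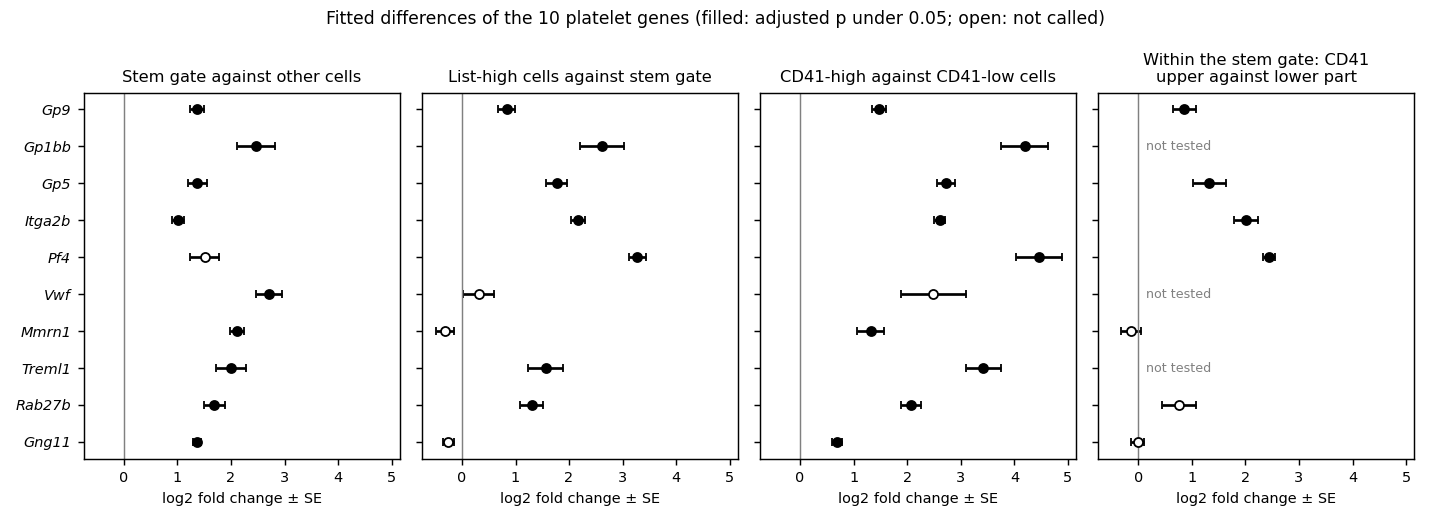
Log2 difference with its SE (bars) of the 10 platelet genes in 4 comparisons: stem gate against other cells, list-high cells against the stem gate, CD41-high against CD41-low cells, and the upper against the lower CD41 part of the stem gate. Filled points passed edgeR's quasi-likelihood test at an adjusted p under 0.05. Vwf, Mmrn1 and Gng11 are high in the first comparison and near 0 in the second, where Pf4 stands at 3.27.

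The CD41 tag allows the RNA to be set against the surface protein. Cells carried a mean of 37.3, 35.4, 34.4 and 34.7 tag UMIs. The top 10% in each mouse (CD41-high, 356 cells, median 60 tag UMIs) were compared with the lower 50% (CD41-low, 1774 cells). CD41-high cells were also deeper, with a median of 10165 RNA UMIs against 7514, and carried a median of 943 hashtag UMIs against 721.5, and a ranking per hashtag UMI is therefore given as well. Across cells the tag had a Spearman rho of 0.332 with hashtag UMIs, 0.170 with RNA UMIs and 0.409 with the CD150 tag (means over 4 mice of 3470 cells, which share library and depth).

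Itga2b, the gene of the tagged protein, was at 121, 132, 128 and 157 CPM in CD41-high cells and at 13.3, 23.8, 23.1 and 25.6 CPM in CD41-low cells. Every mouse was higher and nothing overlapped, with a log2 difference of 2.61 (SE 0.11, adjusted p = 3.69e-20, edgeR's quasi-likelihood test with Benjamini-Hochberg adjustment). Pf4 was at 937, 966, 432 and 1676 CPM against 24.8, 75.6, 31.2 and 39.0 CPM, a difference of 4.46 (SE 0.43), the greatest of the 10. Its adjusted p of 0.0190 became 0.0676 to 0.0926 when any 1 mouse was left out.

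In this comparison 9 of 10 members were higher, where 5.72% of 9439 genes were. Gp1bb rose by 4.19 (SE 0.44), Treml1 by 3.42 (SE 0.33), Gp5 by 2.73 (SE 0.17), Rab27b by 2.07 (SE 0.18), Gp9 by 1.47 (SE 0.14), Mmrn1 by 1.32 (SE 0.25) and Gng11 by 0.69 (SE 0.09). In all CD41-low cells Gp1bb and Treml1 had only 10 and 26 UMIs. They and Vwf passed the filter for low counts only through CD41-high cells, which weakens their part in the count. Vwf was at 28.6, 10.3, 15.3 and 26.8 CPM against 1.44, 7.51, 2.06 and 2.28 CPM and did not pass (2.49, SE 0.61, adjusted p = 0.0630). The groups did not overlap, but Helios-deficient mouse 2 had both the lowest CD41-high value and the highest CD41-low value. The call of Mmrn1 was lost without wild-type mouse 1 (adjusted p = 0.0590, edgeR's quasi-likelihood test with Benjamini-Hochberg adjustment).

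Ranking cells by CD41 per hashtag UMI instead left 7 of 9 members higher (1.04% of genes), Itga2b by 1.84, with Pf4 (3.30, adjusted p = 0.156) and Mmrn1 (0.71, adjusted p = 0.113) not called and Vwf called (2.13, all by edgeR's quasi-likelihood test with Benjamini-Hochberg adjustment). Without list-high cells, 8 of 9 were higher (2.32% of genes). On the tag as counted, 16 of 20 further platelet genes tested were higher in CD41-high cells, with a median log2 difference of 0.90, and so were 7 of the 11 transcription factors, Gata1 by 1.94. Elane, a neutrophil granule gene, was also at 1084, 481, 6.44 and 4.96 CPM in CD41-high cells, against 14.8, 22.3, 5.57 and 4.56 CPM in CD41-low cells. The 5 myeloid markers summed to a range of 659 to 3407 CPM in CD41-high and 889 to 1408 CPM in CD41-low cells, and their part in the result was not tested.

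Along 10 bins of the tag the genes took different courses. Mean Itga2b was 18.8 CPM in the first bin (median 21 tag UMIs) and 134 CPM in the last (median 60). Pf4 went from 23.9 to 1003 CPM, while Gng11 went from 70.8 to 117 CPM. Single cells matched less well than sums: after thinning, 23.7% of CD41-high cells had an Itga2b UMI, and of the 309 cells with one, 27.2% were CD41-high and 33.7% CD41-low. The Spearman rho between tag and Itga2b was 0.213 over all cells (0.166 to 0.308 by mouse) and 0.392 in the stem gate. For the tag per hashtag UMI it was 0.0764 and 0.250.

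**Figure D3:**
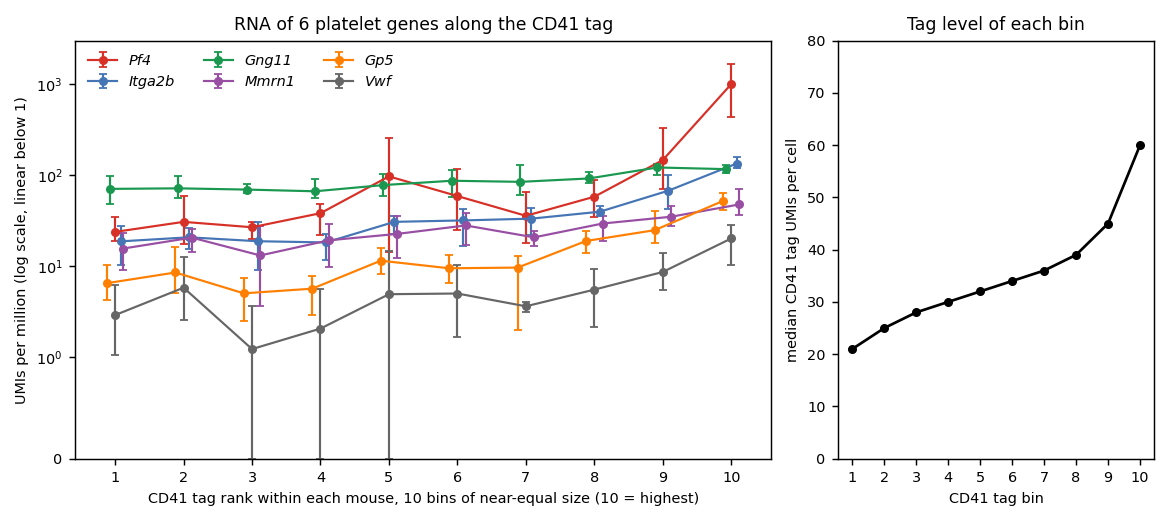
Left, mean level (CPM, log axis, with the range over the 4 mice) of 6 platelet genes along 10 bins of near-equal size of the CD41 tag; right, the median tag UMIs per bin. Pf4 reaches 1003 CPM in the last bin and Itga2b 134 CPM, while Gng11 ends at 117 CPM.

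Within the stem gate alone, cells above the gate's median tag were compared with the rest. Itga2b was at 130, 145, 122 and 112 CPM above and at 20.6, 45.1, 27.3 and 26.6 CPM below, a log2 difference of 2.01 (SE 0.22) with no overlap. Pf4 was at 534, 1100, 220 and 892 CPM against 49.4, 249, 69.4 and 106 CPM, and higher in 4 of 4 mice. Its difference was 2.43 (SE 0.11), with an adjusted p of 2.06e-68 by edgeR's quasi-likelihood test and of 3.25e-08 by DESeq2, both with Benjamini-Hochberg adjustment. The rise was uneven, from 49.4 to 534 CPM in Helios-deficient mouse 1 but from 69.4 to 220 CPM in wild-type mouse 1. The edgeR SE and p-value are too small to reflect that spread between mice.

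Of 7 members tested, 4 were higher (4.5% of 4999 genes), the others being Gp5 (1.33, SE 0.31) and Gp9 (0.86, SE 0.21). Itga2b, Gp5 and Gp9 passed the filter for low counts only through the cells above the median, which weakens their part in the count. Rab27b (0.76, adjusted p = 0.138), Mmrn1 (-0.14, adjusted p = 0.757) and Gng11 (-0.01, adjusted p = 0.979) were not called by edgeR's quasi-likelihood test with Benjamini-Hochberg adjustment. Mmrn1 was at 84.0, 68.3, 92.7 and 87.2 CPM above the median and at 70.0, 109, 79.4 and 94.4 CPM below it, with full overlap. Gp1bb, Treml1 and Vwf had too few counts to test.

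This result depends on how the tag is ranked. With CD41 per hashtag UMI no member was called by edgeR (0.0801% of genes were, 2 members had an unadjusted p under 0.05, and Itga2b stood at 1.05). DESeq2 called 1 member higher on the tag as counted, Pf4, where 31 of 4999 genes were. Without list-high cells edgeR called 2 of 5 tested as higher, Itga2b and Gp9, where 94 of 4424 genes were.

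Genotype was tested over the 4 mice in all kept cells, the stem gate, CD41-high cells and list-high cells. With all 4 mice and these groups as cut above, none of the 10 members passed. Vwf and Gng11 did pass in a stem gate cut on tag shares, given below. In all kept cells 0 of 10 members were called by edgeR, where 0.794% of 11592 genes were, and 0 by DESeq2 (0.293%). At an unadjusted p under 0.05, 4 members passed (10.4% of genes): Mmrn1, Gng11, Vwf and Gp1bb, all higher in the Helios-deficient mice. Mmrn1 was at 27.4 and 30.9 CPM in Helios-deficient and at 24.0 and 21.3 CPM in wild-type mice (log2 difference 0.37, SE 0.12, adjusted p = 0.196). Gng11 was at 84.3 and 106 against 81.2 and 76.5 CPM (0.28, SE 0.09, adjusted p = 0.264). Vwf was at 6.46 and 8.43 against 4.36 and 5.98 CPM (0.57, adjusted p = 0.389). For these 3 genes the genotypes did not overlap, but the gap between them was narrower than the distance between the Helios-deficient mice. The share of all genes without overlap in 2 against 2 mice was not counted, so nothing is concluded from it. Gp1bb was at 3.49 and 3.92 against 2.33 and 2.27 CPM (0.70, SE 0.31, adjusted p = 0.454), a wider gap than within a genotype, from 96 UMIs. Rab27b (0.31), Gp9 (0.26), Gp5 (0.18), Treml1 (0.18) and Itga2b (-0.0059) had smaller differences.

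Single mice decided several of these values. Leaving out a mouse leaves 1 mouse in its genotype, which is assumed to vary like the 2 of the other, so only differences are given. Without Helios-deficient mouse 1, Mmrn1 stood at 0.44 and Gng11 at 0.42. Pf4, at 148 and 216 against 84.6 and 242 CPM, overlapped fully (0.16, SE 0.77). It stood at -0.41 without wild-type mouse 1 and at 1.11 without wild-type mouse 2. These opposite signs follow which wild-type mouse is left. Myeloid marker sums were 1646, 1538, 1056 and 901 CPM and erythroid sums 103, 145, 38.7 and 114 CPM over the same mice, and their part in these values was not tested.

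The stem gate gave the same picture. By edgeR 0 of 10 members were called (0.0812% of 7391 genes), 0 by DESeq2 (0.0271%), and 2 had an unadjusted p under 0.05 (5.51% of genes), Vwf and Gng11. Vwf was at 35.6 and 38.5 CPM in Helios-deficient against 18.5 and 20.3 CPM in wild-type mice (0.93, adjusted p = 0.668), from 82 UMIs in all. Gng11 was at 206 and 243 against 167 and 181 CPM (0.37, adjusted p = 0.677). Gp1bb had the greatest difference there, at 15.8 and 16.9 against 8.69 and 6.75 CPM (1.04, SE 0.52, adjusted p = 0.905). Pf4 (0.65), Rab27b (0.52), Gp9 (0.37), Treml1 (0.24), Itga2b (0.22) and Gp5 (-0.20) were not called either. With gates cut on tag shares, Vwf and Gng11 were called (Vwf 1.07, adjusted p = 0.0085, and Gng11 0.34, adjusted p = 0.0437, edgeR's quasi-likelihood test with Benjamini-Hochberg adjustment). In that fit 115 of 9438 genes were called, and the gate was larger, with 140, 219, 321 and 243 cells. Mmrn1 was at 77.2 and 86.7 against 86.9 and 90.5 CPM (-0.11).

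A test of whether the genotype difference itself differed between the stem gate and other cells called 0 members by edgeR (0.0293% of 10241 genes) and 0 by DESeq2 (0.00976%). Mmrn1 was the only member with an unadjusted p under 0.05 (4.35% of genes), at -0.66 with an adjusted p of 0.941 by edgeR's quasi-likelihood test with Benjamini-Hochberg adjustment. The other 9 stood at 0.64 for Vwf, 0.60 for Pf4 and Gp1bb, 0.28 for Rab27b, 0.26 for Itga2b, 0.14 for Gp9, 0.12 for Gng11, 0.10 for Treml1 and -0.47 for Gp5.

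In CD41-high cells 0 members were called by edgeR (0.299% of genes) and 0 by DESeq2 (0.125%), and 2, Gp1bb (0.86) and Gp5 (0.44), had an unadjusted p under 0.05 (6.79%). Mmrn1 (0.43), Rab27b (0.35), Gng11 (0.28), Treml1 (0.12), Gp9 (0.03), Pf4 (-0.13), Itga2b (-0.15) and Vwf (-0.21) made up the rest. In list-high cells 0 were called by edgeR (0.0922%), 0 by DESeq2 (0.0184%) and 0 at an unadjusted p under 0.05 (6.07%). The differences were 0.67 for Gp1bb, 0.35 for Rab27b, 0.23 for Gp5, 0.22 for Gng11, 0.13 for Pf4 and Itga2b, 0.05 for Gp9, -0.13 for Mmrn1, -0.32 for Treml1 and -0.45 for Vwf. In both groups the direction of Pf4 followed the wild-type mouse left out, lower without mouse 1 and higher without mouse 2. Again 1 wild-type mouse was left in that arm.

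Beyond the members, 20 of the 28 further platelet genes were tested over all cells. The 2 called were both higher in the Helios-deficient mice: Selp, the adhesion receptor P-selectin, at 33.0 and 27.8 against 11.3 and 8.49 CPM (log2 difference 1.58, adjusted p = 5.55e-06), and Cavin2 (0.74, adjusted p = 0.0304, edgeR's quasi-likelihood test with Benjamini-Hochberg adjustment). Their median difference was 0.11, against -0.00029 over all genes, and 0 of the 11 transcription factors were called.

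The CD41 tag was at a mean of 36.3 ± 1.32 UMIs per cell in Helios-deficient and 34.6 ± 0.172 in wild-type mice (SD, n = 2 each). The difference of 1.77 was higher in 2 of 2 mice, with an exact two-sided permutation p of 0.33, the smallest that 2 against 2 mice can give. In the stem gate the tag was at 41.5, 38.2, 38.5 and 39.2 UMIs, with overlap (exact permutation p = 1.0). List-high cells made up 5.39%, 5.34%, 5.11% and 4.38% of cells, a difference of 0.622 percentage points with the same smallest exact permutation p of 0.33.

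**Figure D4:**
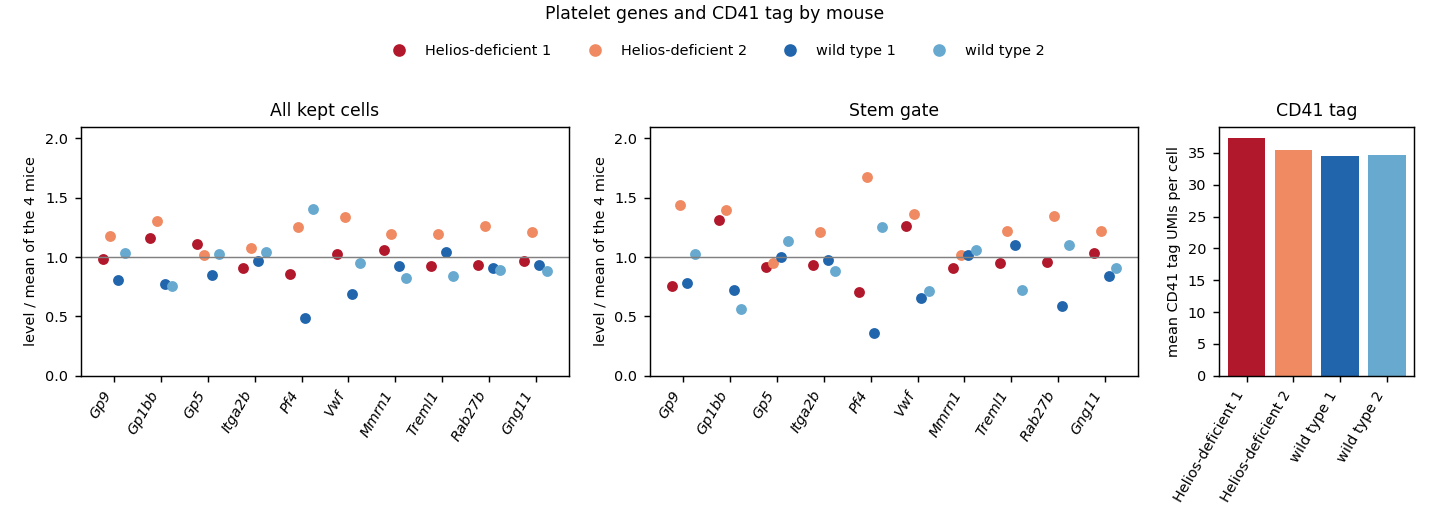
Level of each platelet gene in each mouse divided by the mean of the 4 mice, in all kept cells and in the stem gate, and the mean CD41 tag UMIs per cell by mouse (bars from 0). Wild-type Vwf in the stem gate lies below both Helios-deficient mice, and Pf4 overlaps between genotypes in both cell groups.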

How the data were processed

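UMI counts per gene, antibody tag and cell barcode were used as deposited; the authors made them with Cell Ranger (no version given) and build mm10, per the submitters' processing notes, which also name Seurat 3.0.0, and the matrix header gives software version 3.0.2. The authors' deposited tables give each barcode's hashtag call and the barcodes kept; hashtags 1 and 2 mark Helios-deficient and 3 and 4 wild-type mice, per the labels. Of 4108 barcodes, 3842 had a single-mouse call and 3470 were kept. The authors' hashtag calls remove cells mixed from different mice, and no doublet caller was run for pairs of cells from the same mouse. Per the labels, 2500 cells per mouse were loaded.

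Counts were summed per mouse and cell group, and the mouse was the replicate (2 per genotype). The labels give no ages. The p-values are meant to measure the spread between these mice, which the edgeR value of Pf4 within the stem gate by CD41 does not. Sums were tested with edgeR 4.0.16 (quasi-likelihood, robust, TMM, filterByExpr for low counts) over all genes in R 4.3.3, with Benjamini-Hochberg adjustment and a threshold of 0.05. Comparisons of cell groups carried the mouse as a term. Each standard error is the log2 fold change over the root of its F value. DESeq2 1.42.0 was an alternative, and its missing adjusted p-values were left missing. The procedure was tested on simulated counts. Python 3.11.15, numpy 2.4.6, scipy 1.17.1 and pandas 2.3.3 did the rest. Intervals cover counting error only.

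All 10 members are named in every comparison. Among other platelet genes and transcription factors, those with the smallest p were named, and some are not reported here. Members and lists were chosen with earlier results of these data known. The alternatives were other gates, cuts, filters, rankings and each mouse left out. Leaving out list-high cells and a narrower list were added after the data were seen.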

Additional observations from a re-analysis of the deposited data

Results flagged for a closer look

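Platelet gene UMIs were also present in barcodes that the comparisons did not use, at levels above what a count of 3 UMIs over the group would give. The 231 doublet barcodes held 1779 UMIs of the 10 genes, or 541 CPM (floor 0.912 CPM). The 35 barcodes without a hashtag held 69, or 346 CPM (floor 15.1 CPM). The 372 single-mouse barcodes that the authors left out held 2212, or 901 CPM (floor 1.22 CPM), at a median of only 1896 RNA UMIs. The kept cells held 13119, or 399.5 CPM. The mean CD41 tag was 54.0 UMIs in the doublets, 13.7 in barcodes without a hashtag, 36.3 in the barcodes left out and 35.2 in the kept cells.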

How the results depend on the processing

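No paired analysis was possible because the labels number no mice across genotypes; the cell groups within a mouse were compared with the mouse as a term. A genotype fit without 1 mouse has 1 mouse in an arm, assumed to vary like the other. Calls from such genotype fits are therefore not counted. Leaving out 1 mouse in turn, the count of members called ranged from 5 to 9 for the CD48-high CD150-high gate. Within the stem gate by CD41 it ranged from 3 to 5. DESeq2 called 4 members in list-high cells and 1 within the stem gate, where CD41 per hashtag UMI gave 0 and the removal of list-high cells, chosen after the data were seen, gave 2. Gates on tag shares gave 2 genotype calls in the stem gate, where 115 of 9438 genes were called. Genotype differences changed sign when a mouse was left out for Itga2b (-0.15 to 0.10), Pf4 (-0.41 to 1.11) and Treml1 (-0.035 to 0.36) in all cells, and for Itga2b (-0.038 to 0.36), Pf4 (-0.19 to 1.76), Gp9 (-0.29 to 0.68) and Treml1 (-0.022 to 0.58) in the stem gate. All single-mouse barcodes gave Itga2b 0.062. Tag shares gave Gp5 0.21 and Mmrn1 0.32 for genotype in the stem gate, and Mmrn1 0.0069 and Gng11 0.053 in list-high cells, where Vwf ranged from -0.0083 to 0.71 with a mouse left out. Within the stem gate by CD41, Gng11 stood at 0.018 with DESeq2, 0.021 without a filter, 0.094 on tag shares, 0.16 per hashtag UMI, 0.036 with all single-mouse barcodes and from -0.088 to 0.16 with a mouse left out; Mmrn1 stood at 0.025, 0.11 and from -0.28 to 0.075 on tag shares, per hashtag UMI and with a mouse left out. Leaving aside genotype fits with 1 mouse in an arm, none of these reversed values passed the test. The cause was not tested. The CD41 tag difference ranged from 0.836 to 2.70 UMIs and the list-high share from 0.257 to 0.987 percentage points with a mouse left out. Not run for want of cells were the CD48-high CD150-high gate on tag shares and genotype at the top 2% of the list. Depth limits Gp1bb, Treml1 and Vwf most.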
